A study of Mus musculus with 8 samples.

Results

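The 2 normal epithelial layers of the mouse mammary gland, sorted by flow cytometry from wildtype glands, were compared gene by gene: basal CD24+CD29hi cells (CD29hi below) against luminal CD24hiCD29lo cells (CD29lo below). The comparison uses the 2 arrays of each gate from wildtype (WT) mice, 4 of the 8 arrays of the series, and every one of 18194 genes with a probe set of its own, each represented by its probe set of highest mean over the 8 arrays. The other 4 arrays hold the same gates from mice with a germline knockout (KO) of C/EBPb, a transcription factor, and the series asked which pathways C/EBPb regulates in these stem and progenitor subpopulations. They are used here for the shared estimate of spread and as a second pair of gates set beside the WT pair. Per the labels' protocols the glands came in 2 paired sets with 10 mice per group, and sorting used CD24, CD29 and LIN, which usually stands for markers of blood and other non-epithelial cells. The strain, age and reproductive stage of the mice, the purity of the sort and the part of Cebpb deleted are not stated in the sources used here. The arrays are labelled biological replicates, but which mice lie behind each is not given, so the p values measure the spread between these arrays.

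The mammary duct is built of an inner luminal layer, which lines the lumen and makes milk, and an outer basal layer, which rests on the basement membrane. Most basal cells are myoepithelial: they carry smooth muscle proteins and contract in response to oxytocin to expel milk, and the basal gate is also where cells that can rebuild a gland on transplantation are found. Luminal cells are joined by tight junctions and include hormone-sensing cells, with receptors for oestrogen and progesterone, and progenitors of the milk-secreting alveoli. The basal layer is usually recognised by keratins 5 and 14 and by the transcription factor p63, the luminal layer by keratins 8, 18 and 19.

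Each value is the deposited log2 expression value of 1 probe set on 1 array, so a difference of 1 is a change of 2-fold, and differences are given as CD29hi minus CD29lo ± standard error (SE). Array medians lay between 5.45 and 5.67, and between 64.7% and 71.2% of probe sets lay above a background set from bacterial control probe sets. The gates parted along the leading principal component (54.1% of the variance), with scores from -72.2 to -53.8 in the 4 CD29hi arrays and from 56.4 to 74.7 in the 4 CD29lo arrays. The WT arrays are called hi1 and hi2 below for replicates 1 and 2 of CD29hi, and lo1 and lo2 for those of CD29lo. Within WT CD29lo the arrays stood apart on the second component (13.6% of the variance), at 8.30 for lo1 and -56.2 for lo2. The 24 tested fibroblast markers also differed between these arrays, by a median of 1.94, with lo2 the higher. Results that rest on lo2 are therefore given with and without it.

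Of 14598 genes tested, 578 (3.96%) were called higher in CD29hi and 618 (4.23%) higher in CD29lo, by limma with a Benjamini-Hochberg adjusted p under 0.05. These shares, 8.19% together, are the background against which the gene groups below can be read. The 2 arrays of each WT gate did not overlap in 3802 tested genes with CD29hi the higher (26%) and in 3799 with CD29lo the higher (26%), so a lack of overlap is by itself common. The median size of a called difference was 2.14 in the CD29hi direction and 2.31 in the CD29lo direction. A difference of at least 3, or 8-fold, was seen in 175 and 188 of the called genes, and one of at least 5 in 36 and 32. In 67 of the genes called for CD29hi and 89 of those called for CD29lo, the other gate lay at or below background on both of its arrays. The counts moved with single arrays: they were 274 and 286 without hi1, 214 and 298 without hi2, 278 and 246 without lo1, and 436 and 292 without lo2. Of the 618 CD29lo calls, 287 were also made without lo2, and of the 578 CD29hi calls 355. Called genes often have further probe sets: 1169 of them, in 660 genes, of which 1100 (94.1%) differed in the same direction, while none was called the opposite way. RNA from sorted pools is bulk RNA, in which fewer cells of a type and less RNA per cell cannot be told apart.

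**Figure D1:**
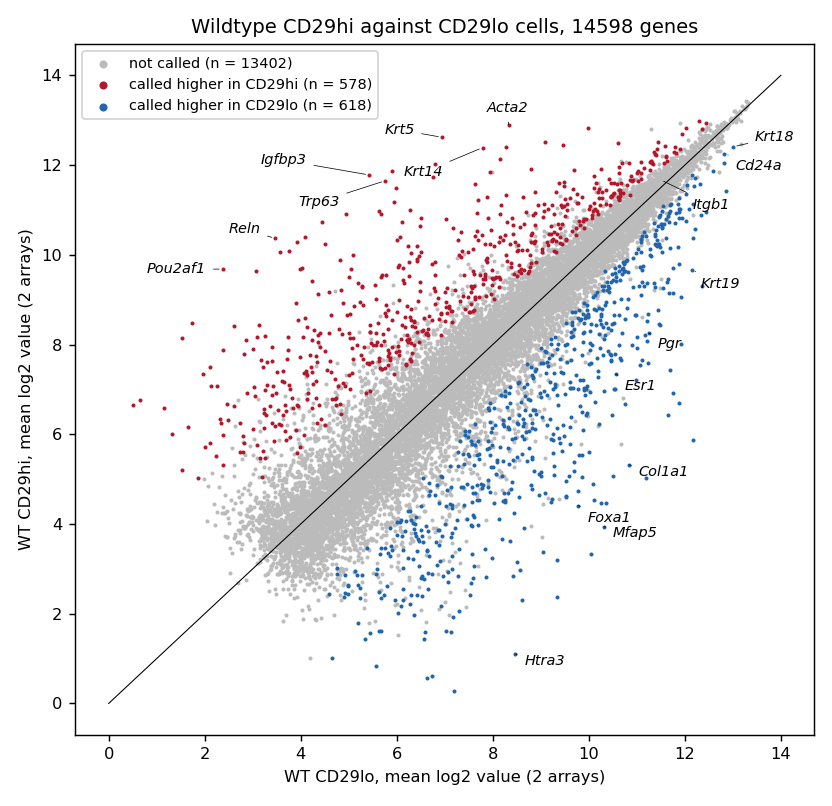
Mean log2 value of each of the 14598 tested genes in WT CD29lo (x axis) and WT CD29hi cells (y axis), 2 arrays each, 1 point per gene; red and blue points were called higher in CD29hi (578) and in CD29lo (618), grey points were not called, and the line marks equal values. Basal genes such as Krt5, Acta2 and Trp63 lie far above the line, Foxa1, Esr1, Pgr and Krt19 below it, and Itgb1, which encodes the sort antigen CD29, close to it.

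The antigens of the sort were read first. Itgb1, which encodes CD29 (integrin beta-1), had values of 11.66 and 11.69 in WT CD29hi and 11.39 and 11.59 in WT CD29lo. The groups did not overlap, but the difference of 0.19 ± 0.124 did not pass (adjusted p = 0.442). Cd24a, which encodes CD24, had values of 12.24 and 12.27 in CD29hi against 12.93 and 12.72 in CD29lo. It was called lower in CD29hi, by -0.57 ± 0.091 (adjusted p = 0.00776), a call lost without lo1 (-0.47, adjusted p = 0.061). Cebpb stood at 11.95 and 12.25 against 11.83 and 12.18 and overlapped between the gates (0.10 ± 0.274, adjusted p = 0.886). In the KO arrays, where Cebpb checks the label, it lay between 8.6 and 9.38.

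The basal keratins set the gates apart by up to 51.3-fold: 5 of the 6 tested were called higher in CD29hi and none lower, with a median difference of 4.30. Krt5, the type II keratin of basal epithelia, had values of 12.56 and 12.68 in CD29hi and 7.13 and 6.75 in CD29lo, a difference of 5.68 ± 0.211 (adjusted p = 3.32e-05). Its partner Krt14 stood at 12.42 and 12.36 against 8.03 and 7.55. The values of Krt15 were 9.79 and 9.98 against 4.95 and 4.69, and those of Krt17 12.12 and 12.15 against 8.15 and 8.13. In these 4 genes the arrays of a gate lay within 0.48 of each other, far less than the distance between gates. Krt16 was called at a lower level (5.94 and 6.57 against 4.66 and 4, adjusted p = 0.0321), and the one not called, Krt6a, stood at 8.95 and 7.99 against 7.98 and 6.71. Without any single WT array, the count was 4 of the 6.

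The contractile apparatus of smooth muscle had the highest share of calls among the lists of more than 6 tested genes: 18 of 27 tested genes were called higher in CD29hi and none lower, against 3.96% of all genes. The median difference was 2.79. Without hi2 the count was 11, and without any other single WT array 14 or 15. Acta2, smooth muscle alpha-actin and the usual marker of myoepithelial cells, had values of 12.77 and 13.04 in CD29hi and 8.22 and 8.44 in CD29lo, a difference of 4.58 ± 0.186 or 23.8-fold (adjusted p = 3.39e-05). Myh11, the smooth muscle myosin heavy chain, stood at 11.66 and 12.08 against 5.91 and 5.89 (62.7-fold). Mylk, the kinase that switches this myosin on by phosphorylating its light chain, stood at 12.23 and 12.59 against 8.08 and 8.48 (17.5-fold). Tpm2, a tropomyosin of the thin filament, stood at 12.70 and 12.94 against 10.17 and 9.78 (7.19-fold). Each part of the contraction machine, from motor to kinase to filament, thus held a gene called higher in the basal gate. Lmod1, a nucleator of actin filaments in smooth muscle, was among the 15 largest differences of all genes at 10.86 and 10.97 against 6.05 and 3.82. Further members, named after their values were seen, were Cnn1 (calponin, 37.8-fold), Tagln (transgelin, 15.5-fold) and Oxtr, the oxytocin receptor, at 11.53 and 11.94 against 7.49 and 6 (31.8-fold). Broadly expressed members differed less: Tpm1 was called at 1.41-fold and Actn1 at 1.71-fold, while Cald1 (0.44 ± 0.148, adjusted p = 0.124) was not called.

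Smooth muscle genes are textbook targets of serum response factor and its cofactors of the myocardin family, which bind a sequence known as the CArG box. The window from 250 bases before to 50 bases after the gene start was searched for the CArG box. The promoters were those of RefSeq (assembly GRCm38.p6). Only the exact form CCWWWWWWGG, with A or T at each W, was counted, and its reverse complement has the same form. Variant boxes and boxes outside the window were not searched, so a gene without a match may still hold one. The box was found in 4 of the 23 contraction genes with a promoter (17.4%), namely Cnn2, Myl6, Myl9 and Vcl, against 1.70% of the 11678 tested genes with a promoter and 1.63% of all 32851 promoters. Myl6 and Vcl were not called. Among the 15 contraction genes called for CD29hi, 2 held the box (13.3%), so it was no more common in called members than in the list. Over all genes, it was present in 15 of 434 genes called for CD29hi (3.46%) and 7 of 452 called for CD29lo (1.55%). A match describes these letters and is no evidence of binding. The windows of the contraction genes that were both called and held a box are shown because they carry the motif beside the measured difference, with the box in capitals. Myl9, the regulatory light chain that Mylk phosphorylates, stood at 11.32 and 11.64 against 6.24 and 5.73 (45.1-fold), and its box starts 161 bases before the gene start, within chr2:156775214-156775513 on the plus strand. Cnn2, a calponin of non-muscle and muscle cells, stood at 11.60 and 11.78 against 10.41 and 10.45 (2.39-fold), with a box starting 56 bases before the gene start, within chr10:79988350-79988649 on the plus strand.
Myl9: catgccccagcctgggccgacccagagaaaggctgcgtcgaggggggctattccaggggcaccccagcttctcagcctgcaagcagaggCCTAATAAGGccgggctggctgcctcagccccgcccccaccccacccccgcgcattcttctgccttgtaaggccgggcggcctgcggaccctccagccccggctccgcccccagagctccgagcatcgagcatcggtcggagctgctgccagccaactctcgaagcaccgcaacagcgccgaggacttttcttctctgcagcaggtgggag
Cnn2: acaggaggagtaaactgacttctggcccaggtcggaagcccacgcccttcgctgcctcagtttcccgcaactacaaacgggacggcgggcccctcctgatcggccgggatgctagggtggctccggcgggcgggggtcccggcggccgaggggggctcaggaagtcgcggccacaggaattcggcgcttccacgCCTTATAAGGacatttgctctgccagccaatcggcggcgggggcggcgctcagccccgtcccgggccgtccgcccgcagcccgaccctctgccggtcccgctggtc

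Transcription factors tied to the basal state followed the keratins in part: 12 of 35 tested were called higher in CD29hi (34.3%) and none lower, and the median difference was 0.35. The count was 8 and 7 without hi1 and hi2, and 10 without either WT CD29lo array. Without either KO CD29lo array 14 were called for CD29hi and 5 for CD29lo. Trp63, which encodes p63, the master regulator of basal and stratified epithelia, had values of 11.36 and 11.94 in CD29hi and 5.91 and 5.60 in CD29lo, a difference of 5.90 ± 0.557 (adjusted p = 0.000932). Irx4, an Iroquois homeobox factor, stood at 10.06 and 10.11 against 4.42 and 3.09, a difference of 6.33 ± 0.455. Bcl11b, a zinc finger repressor first known from T cells and also linked to basal mammary cells, stood at 9.61 and 9.65 against 4.52 and 1.60. Id4, an inhibitor of helix-loop-helix factors that is abundant in basal mammary cells, stood at 12.38 and 12.64 against 8.95 and 9.23 (10.7-fold). The 2 CD29lo arrays of Bcl11b were spread, at values where both arrays of CD29hi were far higher. Mrtfa, a cofactor of serum response factor named after its values were seen, was called at 7.12 and 7.35 against 4.69 and 4.75. Snai2 (Slug), also named after its values were seen, had a large difference of 3.87 ± 1.11 that did not pass (adjusted p = 0.0755), with values of 11.41 and 12.28 against 7.13 and 8.83. Sox9, at 11.45 and 11.50 against 11.43 and 11.33, was not called.

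The largest differences in the CD29hi direction were not all known myoepithelial genes. Pou2af1, a coactivator of octamer-binding factors best known in B cells, had values of 9.12 and 10.24 in CD29hi against 2.80 and 1.95 in CD29lo, the latter at or below background, so that it was at least 54.2-fold higher (adjusted p = 0.000306). Reln, the secreted guidance protein reelin, stood at 10.04 and 10.69 against 2.86 and 4.08, a difference of 6.90 ± 0.475. Ephb1, a receptor for membrane-bound ephrins, stood at 8.22 and 8.75 against 2.03 and 1.43 and was at least 23.7-fold higher. Fat2, a giant cadherin, was at least 18.7-fold higher, from values of 7.48 and 8.81 against 1.83 and 1.21. In each of these genes the luminal gate lay near or below the background, while the basal arrays lay far above it. Tenm2, a teneurin cell adhesion protein, stood at 10.04 and 10.53 against 3.83 and 4.02, and Nipal4, a magnesium transporter of skin, at 9.77 and 10.34 against 2.84 and 4.31. Ripor2 (6.31 ± 0.476), Moxd1 (6.30 ± 0.355), Cntn2 (at least 6.65-fold) and Rasa4 (at least 7.18-fold) completed the 15 largest together with Bcl11b, Irx4, Igfbp3, Lmod1 and Myh11. All 15 were higher in hi2 than in hi1. In the KO arrays the values of these 15 genes differed in the same direction, with CD29lo at or below background on both KO arrays in 9 of them. The calls of all 15 in WT were kept under every alternative run that tested them. Of 19 runs, 17 tested Cntn2 and 18 tested Ephb1, Fat2 and Rasa4. Some other probe sets differed less in the same direction: by 1.14 in Rasa4, 1.31 to 3.845 in Bcl11b and 0.2 in Tenm2. Those of Ripor2 differed by 2.61 to 7.04, and a further one of Tenm2 by 6.085.

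The basal layer rests on laminins of the basement membrane, among whose chains are those encoded by Lama3 and Lamb3, and is anchored to them by hemidesmosomes. Of 41 tested genes of basement membrane and matrix, 7 were called higher in CD29hi and 3 higher in CD29lo. Lama3 stood at 10.93 and 11.42 in CD29hi against 5.93 and 5.95 in CD29lo, a difference of 5.24 ± 0.437 (adjusted p = 0.000559). Lamb3 stood at 11.13 and 11.32 against 7.79 and 7.61, a difference of 3.53 ± 0.191. Col17a1, a collagen of hemidesmosomes, stood at 11 and 10.96 against 5.16 and 6.10 (40.8-fold). Vwa1, a small matrix protein with a von Willebrand factor domain, stood at 8.99 and 10.09 against 5.90 and 5.64 (13.6-fold). In all 4 the arrays of the gates lay far apart. The 3 genes called the other way, named after their values were seen, were Lama2 (5.17 and 5.14 against 7.69 and 10.33), Thbs2 (6.18 and 4.91 against 8.82 and 10.78) and Egflam, and the list had 0 calls for CD29lo without lo2 and 6 for CD29hi. It also had 0 CD29lo calls without hi1, 1 without hi2 or lo1, and 5 without either KO CD29lo array.

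Integrins link the matrix to the cytoskeleton. Of 35 tested integrins, hemidesmosomal proteins and their partners, 8 were called higher in CD29hi and 1 higher in CD29lo, and the median difference was 0.19. With 1 WT array left out the median lay between 0.065 (without lo1) and 0.29 (without hi1). Several of the calls were lost with 1 array left out, also with a KO CD29hi array, which enters only the estimate of spread. A lost call alone thus does not show a changed difference. Dag1, which encodes the laminin receptor dystroglycan, stood at 10.97 and 11.31 against 9.38 and 9.71 (3.02-fold, adjusted p = 0.00623, and 0.0553 without hi2). Itga3, the integrin chain that pairs with beta-1 to bind laminins, stood at 9.88 and 10.33 against 8.6 and 8.6 (2.84-fold, adjusted p = 0.0101). It lost its call without hi2 (0.0771) or lo1 (0.0578). Itgb6, a receptor that releases active TGF-beta, was the gene called for CD29lo, at 5.54 and 5.01 against 7.97 and 8.02 (6.59-fold). Its adjusted p was 0.011, and between 0.0557 and 0.08 without hi2, lo1 or lo2. For Itgb4, the partner of Itga6 in hemidesmosomes, the difference of 1.86 ± 0.553 was not called (adjusted p = 0.0841).

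In the Notch pathway a ligand on one cell activates a receptor on its neighbour. Of its 26 tested genes, 2 were called for CD29hi, and the share was 7.69% in each direction beside 3.96% and 4.23% of all genes. Both of the 2 encode ligands, while the ligands Jag2, Dll3 and Dll4 were not called. Dll1 stood at 10.65 and 10.65 in CD29hi against 6.83 and 6.14 in CD29lo (17.9-fold, adjusted p = 0.000446), and Jag1 at 11.52 and 11.72 against 9.17 and 9.78 (4.42-fold). Another 2 were called for CD29lo: the receptor Notch3, at 5.62 and 5.77 against 8.33 and 7.5 (4.66-fold, adjusted p = 0.0171), and the protease Adam10 (1.66-fold, adjusted p = 0.024). Notch3 lost its call without hi1, hi2 or lo1 (adjusted p 0.0926, 0.0833 and 0.112), and Adam10 without hi1, lo1 or lo2 (0.102, 0.112 and 0.108). The 2 ligands kept theirs in every alternative run. Notch1, at 10.31 and 10.45 against 11 and 10.44, was not called.

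In the EGF family, 3 of 15 tested genes were called for CD29hi and 1 for CD29lo. Erbb3, a receptor for neuregulins, stood at 8.64 and 8.72 in CD29hi and 11.34 and 11.12 in CD29lo, a difference of -2.55 ± 0.191 (adjusted p = 0.000327). Nrg1, a neuregulin, stood the other way at 7.74 and 7.97 against 4.85 and 4.15, a difference of 3.36 ± 0.616 (adjusted p = 0.0135). A neuregulin was thus called higher in one gate and a neuregulin receptor in the other. The call of Nrg1 was lost without hi1, hi2 or lo2 (adjusted p 0.0707, 0.0907 and 0.0754), and that of Erbb3 under no alternative run. Ereg, which encodes the EGF receptor ligand epiregulin, had values of 7.89 and 5.97 against 3.62 and 4.69 (adjusted p = 0.0427) and lost its call without any one of 5 arrays, with adjusted p from 0.0631 to 0.211. Those were both KO CD29hi arrays, hi1 and both WT CD29lo arrays. The remaining one, Lrig3, a negative regulator of receptor kinases, was 4.14-fold higher in CD29hi (adjusted p = 0.0165) and lost its call without hi1 (0.108), hi2 (0.0516) or lo1 (0.0986). Egfr itself overlapped between the gates (9.37, 9.64, 8.59 and 10.28). The list had 0 CD29hi calls without hi1 and 1 without any other single WT array.

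In Wnt signalling, which maintains basal mammary cells, 7 of 45 tested genes were called for CD29hi (15.6%) and 1 for CD29lo. The called genes include receptors: Fzd3 stood at 10.68 and 10.31 against 9.02 and 8.61 (3.20-fold, adjusted p = 0.00437) and Fzd7 at 11.78 and 12.15 against 10.71 and 10.55 (2.52-fold, adjusted p = 0.00676, and 0.0562 without hi2). Rnf43, a ligase that removes frizzled receptors from the surface, was 3.28-fold higher in CD29hi (adjusted p = 0.0112). Its call was lost without hi1 (0.0619), hi2 (0.0708) or lo2 (0.0583). The ligand Wnt7b was the gene called for CD29lo, at 2.90 and 2.85 against 6.96 and 6.52, and was at least 7.21-fold higher there. A second ligand, Wnt10a, named after its values were seen, ran the other way at 7.94 and 8.41 against 1.17 and 5.01. Its CD29lo arrays were spread, and lo1 lay below the background of that array (3.85), so the size depends on a value below background. Wnt4, a ligand induced by progesterone, stood at 5.90 and 5.92 against 6.26 and 6.52 and was not called (adjusted p = 0.559), and the target gene Axin2 was not called either (adjusted p = 0.20). The CD29hi count fell to 2 without hi1, to 1 without hi2 and to 4 without lo1, was 6 without lo2, and was 12 without either KO CD29lo array, and the CD29lo count was 2 without lo1.

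Among TGF-beta and BMP genes, 4 of 38 were called for CD29hi and 3 for CD29lo. Bmp7, a secreted BMP ligand, stood at 10.18 and 10.30 in CD29hi against 4.30 and 4.71 in CD29lo, a difference of 5.74 ± 0.305 (adjusted p = 0.000102). Inhbb, the beta-B subunit of activin and inhibin, stood the other way at 7.99 and 9.06 against 11.37 and 11.07 (6.48-fold). Ltbp1, which tethers latent TGF-beta to the matrix, was lower in CD29hi by -1.97 ± 0.184. Among FGF and IGF genes, 6 of 24 were called for CD29hi and 3 for CD29lo. Igfbp3, a carrier of insulin-like growth factors, stood at 11.69 and 11.87 against 5.09 and 5.76 (81.9-fold, adjusted p = 9.66e-05). Fgf1, a fibroblast growth factor, stood at 9.28 and 9.83 against 6.46 and 4.92 (14.6-fold), and Fgfrl1, a receptor without a kinase domain, at 10.95 and 10.96 against 8.66 and 8.73 (4.79-fold). Igf1r, the receptor of insulin-like growth factors, was 2.65-fold higher in CD29hi (adjusted p = 0.00826), with adjusted p of 0.0544, 0.057 and 0.0594 without hi1, hi2 and lo1. Bmp7, Inhbb, Igfbp3, Fgf1 and Fgfrl1 kept their calls in every alternative run. The CD29hi count of the first list was 2 without hi1, hi2 or lo1, and that of the second was 3. The 3 FGF and IGF calls for CD29lo were 0 without hi1 or lo2 and 1 without hi2 or lo1.

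Genes of axon guidance, which also steer epithelial branching, gave 5 calls of 52 for CD29hi and 1 for CD29lo. Beside Ephb1, Sema6d, a transmembrane semaphorin, stood at 10.23 and 10.85 against 7.61 and 7.75 (7.26-fold, adjusted p = 0.00112). Ntn1, the secreted protein netrin-1, was called for CD29lo at 8.18 and 7.37 against 9.86 and 9.84 (4.21-fold, adjusted p = 0.0252), a call lost without any single WT array (adjusted p from 0.052 to 0.15). The CD29hi count was 2 without hi1, hi2, lo1 or either KO CD29hi array, and 3 without lo2.

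On the luminal side, keratins differed in the opposite direction but by smaller folds: 4 of 6 tested were called higher in CD29lo. Krt19 stood at 9.60 and 9.74 in CD29hi and 12.14 and 12.15 in CD29lo, a difference of -2.48 ± 0.176 (adjusted p = 0.000306). Krt7 stood at 9.99 and 10.31 against 11.77 and 11.60. The pair that defines simple epithelia differed least: Krt8 stood at 11.77 and 11.98 against 12.64 and 12.55 (1.65-fold) and Krt18 at 12.48 and 12.34 against 13.01 and 13.01 (1.52-fold). The counts of the list did not change when any single array was left out. Krt23, placed on the same list, was higher in CD29hi, at 10.62 and 11.24 against 7.36 and 7.97 (9.61-fold, adjusted p = 0.00337). On all 4 WT arrays Krt8 and Krt18 lay far above the background.

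Luminal transcription factors gave 9 calls of 35 for CD29lo (25.7%) against 1 for CD29hi, and the hormone-sensing list, which shares 4 of the called factors, gave 9 of 20 (45.0%) and none for CD29hi. Their medians were -0.54 and -1.55. Foxa1, the pioneer factor that opens chromatin for the oestrogen receptor, had values of 3.90 and 4.92 in CD29hi and 9.82 and 9.74 in CD29lo, a difference of -5.37 ± 0.405 (41.4-fold, adjusted p = 0.000327). Pgr, the progesterone receptor, stood at 8.26 and 8.25 against 11.42 and 11.07 (7.94-fold). Esr1, the oestrogen receptor, named after its values were seen, stood at 7.70 and 6.98 against 10.62 and 10.50 (9.32-fold). Both steroid receptors and their pioneer factor were thus high in the luminal gate on each array. Gpx3, an extracellular glutathione peroxidase, stood at 7.30 and 7.57 against 11.69 and 11.69 (19.1-fold), and Cxcl15, a chemokine, at 9.52 and 9.10 against 12.44 and 12.27 (8.25-fold). Tox3, an HMG-box factor linked to breast cancer risk, stood at 4.43 and 4.66 against 8.61 and 7.90 (13.1-fold), and Grhl1, a grainyhead factor of epithelial barriers, at 8.91 and 8.71 against 10.95 and 10.64 (3.96-fold). Gata3, the factor that keeps luminal cells differentiated, named after its values were seen, differed by only -0.45 ± 0.134 and was not called (adjusted p = 0.0841). The one factor called the other way was Tfap2c, at 12.49 and 12.56 against 11.68 and 11.21, a call lost without either WT CD29hi array. Without a single WT array the CD29lo count was 7 for the luminal factors and 6 to 8 for the hormone-sensing list.

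Luminal cells seal the lumen with tight junctions, and 17 of 47 tested junction genes (36.2%) were called higher in CD29lo, against 4 higher in CD29hi. The claudins, which form the seal, gave 6 calls of 16 for CD29lo and none for CD29hi. Cldn7 stood at 7.18 and 7.38 in CD29hi against 10.25 and 10.15 in CD29lo, a difference of -2.92 ± 0.251 (adjusted p = 0.000656). Occludin (Ocln), a tight junction protein, stood at 6.54 and 7.41 against 10.40 and 10.24 (10.2-fold), and its relative Marveld3 at 7.77 and 7.75 against 10.55 and 10.05 (5.82-fold). Pkp2, a plakophilin of simple epithelial desmosomes, stood at 7.55 and 7.26 against 10.36 and 10.02 (6.89-fold). Each of these genes kept its call under every alternative run. The 4 genes called for CD29hi were named after their values were seen. They were Cdh2 (N-cadherin, 7.16-fold) and 3 desmosomal genes, Pkp1 (3.15-fold), Dsp (1.52-fold) and Perp (1.77-fold). Further probe sets of Dsp differed by 0.845 and 0.625 in the same direction. Neither was called by limma over every probe set (adjusted p = 0.141 and 0.137). Cdh1, E-cadherin, was called for CD29lo at 2.06-fold from 11.03 and 11.22 against 12.31 and 12.02. The CD29lo count was 11 without hi1 or lo1, 13 without hi2 and 14 without lo2, and the CD29hi count was 1, 3, 2 and 2 in the same order.

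Genes of luminal progenitors and alveoli gave 7 calls of 29 for CD29lo and 2 for CD29hi, with a median of -1.18. Plet1, a surface protein of progenitors, stood at 10.21 and 10.13 against 11.51 and 11.45 (2.48-fold, adjusted p = 0.00498). Gabrp, a GABA receptor subunit of luminal progenitors, stood at 4.61 and 3.34 against 7.39 and 7.71 (11.9-fold). Cldn8, at 4.26 and 2.97 against 8.67 and 8.05 (26.8-fold, adjusted p = 0.00861), lost its call without hi2 (0.0693) or lo1 (0.0641). Ndrg1, a gene of differentiation and low oxygen, ran the other way at 12.87 and 12.79 against 11.97 and 12.08 (1.75-fold). The progenitor markers Kit and Elf5, named after their values were seen, were not called. Kit stood at 6.36 and 7.49 against 9.09 and 8.49 (adjusted p = 0.0861) and Elf5 at 9.14 and 8.17 against 10.06 and 9.77 (adjusted p = 0.449). Milk protein genes were also mostly uncalled, with 1 call of 18 in each direction. The call for CD29lo was the casein Csn3 (-2.07, adjusted p = 0.0225), whose second probe set differed by 0.7, the other way (adjusted p = 0.565 over every probe set). The call for CD29hi was the glucose transporter Slc2a1 (adjusted p = 0.0111). Both of these were lost without hi1 (0.135 and 0.0726), lo1 (0.112 and 0.0654) or lo2 (0.0892 and 0.0556), and Slc2a1 also without hi2 (0.051). The CD29lo count of the progenitor list was 4, 3, 2 and 3 without hi1, hi2, lo1 and lo2, and its CD29hi count 1 without any one of them or of the KO CD29hi arrays.

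Secreted defence proteins, which epithelia release into milk and onto surfaces, gave 8 calls of 28 for CD29lo (28.6%) and 1 for CD29hi. Hp, haptoglobin, stood at 6.36 and 6.97 in CD29hi and 10.64 and 10.85 in CD29lo, a difference of -4.08 ± 0.365 (adjusted p = 0.000818). Wfdc2, a protease inhibitor of the whey acidic protein family, stood at 9.19 and 9.11 against 11.70 and 11.65 (5.76-fold). Clu, clusterin, stood at 11.52 and 11.34 against 12.85 and 12.86 (2.69-fold), and Tlr4, the receptor of bacterial endotoxin, at 7.88 and 8.38 against 10.16 and 10.49 (4.58-fold). The median of the list was -1.34, and -0.74 without lo2, and its genes were higher in lo2 than in lo1 by a median of 0.425. The part of lo2 in the list was not tested. Slpi, a protease inhibitor, was the only call for CD29hi, at 12 and 11.81 against 8.99 and 8.6 (8.63-fold). Its call was lost without hi1, hi2 or lo2. The CD29lo count was 4 without lo2 and 5 without any other single WT array.

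Antigen presentation and interferon genes gave 8 calls of 30 for CD29lo (26.7%) and none for CD29hi, and 28 of the 30 differences lay below 0. Irf1, the transcription factor induced by interferon gamma, stood at 8.34 and 8.96 against 10.87 and 11.10 (5.05-fold, adjusted p = 0.00223). Iigp1, an interferon-induced GTPase, stood at 5.40 and 4.75 against 9.09 and 8.93 (15.3-fold), and the related Gbp2 at 5.81 and 6.86 against 9.42 and 8.96 (7.24-fold). Tapbp, which loads peptides onto class I molecules, was 1.90-fold higher in CD29lo (adjusted p = 0.00854). Its call was lost without hi1 (0.0539) or lo1 (0.0632). The count of the list was 3 without hi1 or lo1, 4 without lo2 and 8 without hi2. Of 13 tested blood cell markers 1 was called each way, Cd68 for CD29hi (lost without hi2 or lo2, adjusted p 0.104 and 0.0773) and Cd53 for CD29lo (4.68 and 4.98 against 7.55 and 8.23), and the part of blood cells in the interferon values was not tested.

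**Figure D2:**
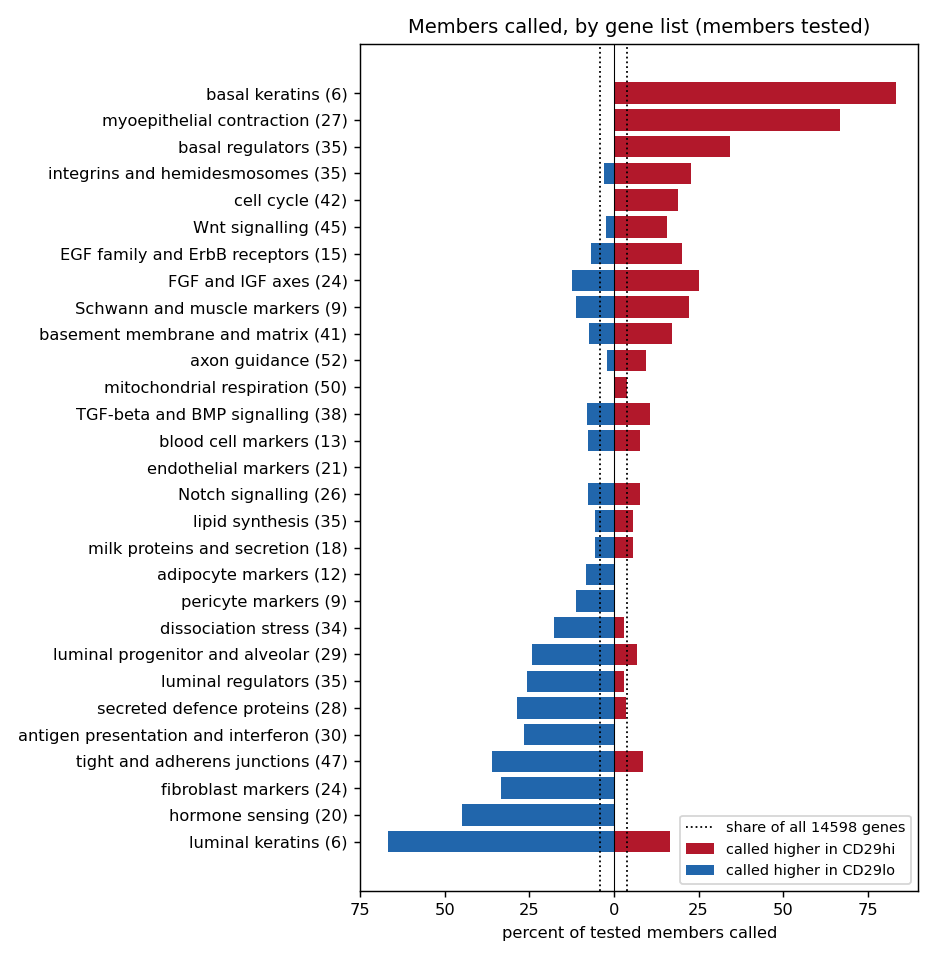
Share of the tested members of 29 gene lists called higher in CD29hi (red, to the right) and higher in CD29lo (blue, to the left), in percent, with the number tested in brackets; dotted lines mark the shares of all 14598 genes, 3.96% and 4.23%. Basal keratins, contraction genes and basal regulators reach furthest to the right, luminal keratins, hormone-sensing genes, junction genes and fibroblast markers furthest to the left.

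The largest differences in the CD29lo direction included many secreted and matrix proteins. Htra3, a secreted protease, had values of 0.00 and 2.20 in CD29hi and 6.90 and 10.03 in CD29lo and was at least 23.9-fold higher there (adjusted p = 0.0142). A second Htra3 probe set differed by only -0.515 and was not called (adjusted p = 0.792 by limma over every probe set). Hpgd, which degrades prostaglandins, was at least 43.9-fold higher, from values of 2.82 and 1.93 against 8.26 and 10.43. Mmp3, the matrix protease stromelysin-1, stood at 5.19 and 6.57 against 11.74 and 12.58 (77.7-fold), and Pla1a, a phospholipase, was at least 43.4-fold higher. Of the 15 largest, 13 were higher in lo2 than in lo1, all but Naip6 and Reg3g, beside 15 of the 15 largest CD29hi genes higher in hi2 than in hi1, and 3 (Mfap5, Dpt and Lum) are on the fibroblast list. Reg3g, an antimicrobial lectin of epithelia, stood at 0.72 and 0.41 against 7.54 and 5.73 and was at least 6.71-fold higher in CD29lo. Naip6, a sensor of bacterial proteins, stood at 0.93 and 0.31 against 7.03 and 6.42 and was at least 7.14-fold higher. Itih5 was at least 26.4-fold higher, at 3.07 and 1.55 against 8.13 and 9.09. Without lo2 Htra3, Sod3, Dpt, Saa3, Pcolce2, Lum and Akr1c14 were no longer called, with adjusted p from 0.0555 to 0.185. Of these, Htra3 and Pcolce2 also lost the call without hi1, and the other 5 without any other single WT array. Ms4a4d (-6.73 ± 1.00) lost it without hi1 (adjusted p = 0.0507), and Hpgd, Mfap5, Itih5, Mmp3, Pla1a, Naip6 and Reg3g kept it under every alternative run. Several sizes were smaller without lo2. The fold was then at least 8.06 for Htra3, at least 20.7 for Hpgd, at least 22 for Pla1a, at least 15.3 for Akr1c14 (25.6 with lo2) and at least 3.76 for Sod3 (9.89 with lo2). Among genes above background on 1 or both arrays of each gate it was 39.1 for Mfap5, which lay below background in hi2. It was 36.9 for Dpt (72.3 with lo2), 21.8 for Lum (50.9), 24.6 for Pcolce2 (55.5) and 56.9 for Ms4a4d (105.8). For Mmp3 it was 58.1 (77.7 with lo2), for Saa3 40.1 (59.1) and for Itih5 at least 18.9 (26.4). The folds of Naip6 and Reg3g were larger without lo2, at least 8.82 and at least 12.6.

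Fibroblast markers, read to see which other cells the gates could hold, moved with these genes. Of 24 tested, 8 were called higher in CD29lo and none higher in CD29hi, 23 of the 24 differences lay below 0, and the median was -3.84. Dcn, the matrix proteoglycan decorin, had values of 6.32 and 7.53 in CD29hi and 11.04 and 12.45 in CD29lo (28.2-fold, adjusted p = 0.00484). Mfap5, a protein of microfibrils, stood at 4.18 and 3.70 against 9.23 and 11.39 (82.7-fold), and Col1a2, a chain of type I collagen, at 6.09 and 7.32 against 11.17 and 12.60 (36.3-fold, adjusted p = 0.0268). Without lo2 these folds were 17.3 for Dcn, 39.1 for Mfap5 and 22.1 for Col1a2. The mean of the list was higher in replicate 2 than in replicate 1 in all 4 groups, at 6.85 beside 5.73 in WT CD29hi, 10.72 beside 8.66 in WT CD29lo, 7.38 beside 6.18 in KO CD29hi and 10.07 beside 6.99 in KO CD29lo. With the replicate number as a block, 17 markers were called for CD29lo. The summed level of the list, after taking the values off the log scale, was 12308 and 15118 in WT CD29hi and 23384 and 66068 in WT CD29lo. All 24 markers lay above background on both WT CD29lo arrays, and 19 and 21 of them on the WT CD29hi arrays. The count of calls was 2 without any single WT array and 14 or 13 without 1 of the KO CD29lo arrays, with 1 marker then called for CD29hi without lo2, and the median was -2.66 without that array. In KO the median was -2.26, and the summed level was 15499 and 17572 in CD29hi and 10412 and 46669 in CD29lo. The part of fibroblast RNA in the CD29lo values of matrix, protease and other secreted genes was not tested. Of 21 endothelial markers none was called by limma in either direction, with a median of 0.12. Of 9 pericyte, 12 adipocyte and 9 Schwann or muscle cell markers, 1, 1 and 1 were called for CD29lo and 0, 0 and 2 for CD29hi, the last 2 being Sox10 and Ncam1. Only Ncam1 among these, with Notch3, Cidea, Mbp and Sox10, kept its call without each single array, the others reaching adjusted p from 0.0553 to 0.231.

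**Figure D3:**
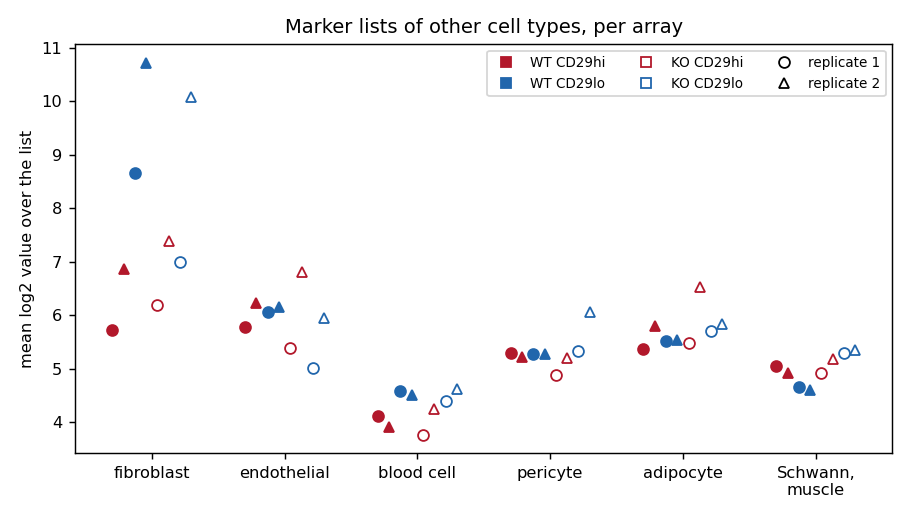
Mean log2 value over the members of 6 marker lists of other cell types on each of the 8 arrays; filled marks are WT and open marks KO, red CD29hi and blue CD29lo, circles replicate 1 and triangles replicate 2. The fibroblast list stands highest in WT CD29lo replicate 2 (10.72) and KO CD29lo replicate 2 (10.07), and the other lists differ less between arrays.

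Cell cycle genes ran towards the basal gate in WT: 8 of 42 tested were called higher in CD29hi, none lower, 37 of 42 differences lay above 0 and the median was 1.53. Tpx2, a spindle assembly factor, stood at 6.78 and 8.01 against 3.79 and 4.69 (8.91-fold, adjusted p = 0.0111). Rrm2, a subunit of ribonucleotide reductase, stood at 8.63 and 9.77 against 6.53 and 7.05 (5.31-fold, adjusted p = 0.016). Kif20a, a kinesin of cell division, stood at 7.43 and 8.71 against 5.41 and 6.04 (5.08-fold, adjusted p = 0.0259), and Rrm1 at 9.72 and 9.72 against 8 and 8.75. Array hi2 was above hi1 in Tpx2, Rrm2 and Kif20a, by more than 1 each time. All 4 calls were lost without hi2 (adjusted p from 0.0812 to 0.151) or lo1 (0.0752 to 0.142), that of Kif20a also without lo2 (0.0593), and that of Rrm1 also without hi1 (0.119) or either KO CD29hi array (0.052 and 0.0514). The count was 0 without hi2, 1 without lo1, 5 without hi1 and 6 without lo2. In KO the median difference of the list was -0.05, and that of Tpx2 was -0.60. The test of the difference between genotypes, which no gene passed, is given below.

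Genes of general metabolism gave shares of calls near those of all genes. Of 50 tested genes of mitochondrial respiration 2 were called for CD29hi (Ndufs8 and Cycs) and none for CD29lo, and both calls were lost without any single WT array. Of 35 lipid synthesis genes 2 were called each way. Scd2, a fatty acid desaturase, was 3.42-fold higher in CD29hi under every alternative run, and Cyp51, of sterol synthesis, was 2.65-fold higher (adjusted p = 0.00738, and 0.0556 without hi1). Dgat2 and Gpam, of triglyceride synthesis, were 2.64-fold and 2.14-fold higher in CD29lo, and both calls were lost without any single WT array. Of 43 ribosomal protein genes none was called by limma, and their median difference was -0.03. Of 34 genes known to respond to tissue dissociation, 6 were called for CD29lo and 1 for CD29hi, Egr2, whose call was lost without hi1 (adjusted p = 0.054) or hi2 (0.0743). Nfkbia, the inhibitor of NF-kappaB that this factor itself induces, stood at 10.74 and 10.91 against 11.88 and 11.99 (2.16-fold, adjusted p = 0.00113), and Gadd45b, a stress response gene, at 8.81 and 8.12 against 10.31 and 10.66 (4.06-fold). The CD29lo count was 2 without lo2, 3 without hi2, 4 without lo1 and 6 without hi1. The part of dissociation in the values was not tested.

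The same gates from KO glands are not part of the WT difference, but their arrays enter the shared estimate of spread, so the called genes were selected in part on their spread in KO. A fit on only the WT arrays called 529 and 654 genes. Of the 578 genes called for CD29hi in WT, 564 (97.6%) had a difference of the same sign in KO, and of the 618 called for CD29lo 610 (98.7%), against 73.6% of all tested genes. The KO arrays of the gates did not overlap, in the same direction, in 553 and 585 of them, against 30.4% and 26.8% of all tested genes in the CD29hi and CD29lo direction. The median difference of the called genes was 1.99 and -2.21 in KO, against 2.14 and -2.31 in WT. Across genes, which are not independent replicates, the correlation of the WT and KO differences was r = 0.761 over all tested genes and 0.929 over the called ones, as a description. The list medians in WT and KO were 4.30 and 4.14 for basal keratins, 2.79 and 2.72 for contraction genes, -1.55 and -2.43 for hormone-sensing genes, -3.84 and -2.26 for fibroblast markers and 1.53 and -0.05 for cell cycle genes.

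No gene passed the test of the difference between the KO and the WT gate difference by limma, while 722 genes (4.95%) had an unadjusted p under 0.05. The genes of smallest p are given as values. Them5, a thioesterase, had values of 8.02 and 8.54 in WT CD29hi and 5.54 and 5.34 in WT CD29lo, but lay at or below background on all 4 KO arrays, so that no gate difference is read in KO (unadjusted p = 0.000287, adjusted p = 0.95). Col13a1, a transmembrane collagen, was lower in CD29hi in WT and differed by 1.19 in KO (unadjusted p = 0.000512, adjusted p = 0.95), with WT values of 3.51 and 3.34, at or below background, against 5.97 and 7.27 (at least 6.64-fold higher in CD29lo in WT, and at least 4.23-fold without lo2). Sncg, gamma-synuclein, stood at 6.19 and 6.68 against 5.95 and 6.93 in WT and at 8.39 and 8.31 against 4.54 and 5.33 in KO. Slc7a11, the cystine transporter, had differences of 0.28 in WT and 2.20 in KO, and Slc22a5, the carnitine transporter, of -0.71 and -3.32. Differences for Rbm24 were 1.61 and 4.07, for Bex4 -2.96 and 0.84, for Tctn1 0.32 and -2.34, and for Ndrg1 0.81 and 0.07, while Mbd4 differed by 2.39 in WT and lay at or below background on both KO CD29hi arrays. A total of 22 genes called in WT had the opposite sign in KO, and in 4 of these a KO gate lay at or below background on both arrays, in 1 of them (Them5) both gates.

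**Figure D4:**
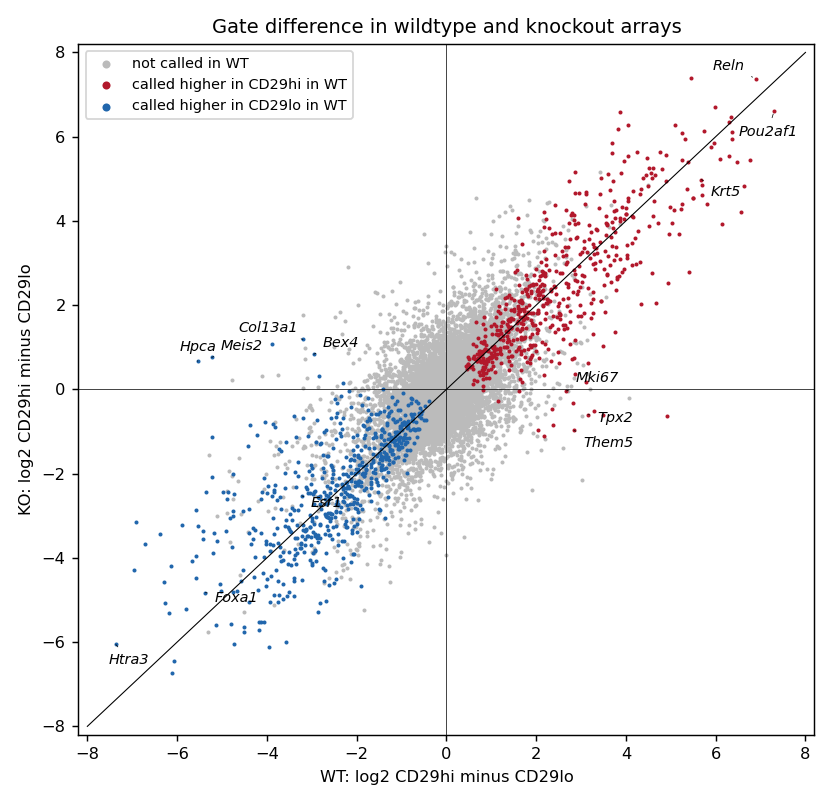
Log2 difference CD29hi minus CD29lo of each tested gene in WT (x axis) and KO (y axis), 1 point per gene; red and blue points were called in WT, grey points were not, and the line marks equal differences. Most called genes lie in the quadrants of equal sign (1174 of 1196), and 22 lie in the others, among them Col13a1, Bex4 and Them5, the last at or below background on all 4 KO arrays.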

How the data were processed

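RNA of FACS-sorted mouse mammary epithelial cells was measured on 8 Affymetrix arrays, 4 groups of 2. Per the labels' protocols, RNA was isolated with a PicoPure kit, amplified with a NuGEN FFPE kit and labelled with biotin. The deposited table holds log2 values, 1 for each probe set on each array, between 0, where they are floored, and 14.42. The scale was read from the values, and how the authors normalized them is not given in the sources used here. They were used as deposited. The number of arrays limits the precision.

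The platform's annotation of 2016 gives 1 gene to 34958 of the 45101 probe sets, several to 932 and none to 9211, and 34754 of the single ones matched a RefSeq gene ID. A gene's level is its probe set of highest mean over the 8 arrays. Genes with a mean under the 25th percentile of all probe sets (3.51) were not tested. The background of an array is the 95th percentile of 27 bacterial control probe sets (3.84 to 4.41). Where both arrays of a gate lie at or below it, a fold is given against it as "at least". Where only 1 of the 2 does, the fold is taken from the values as they stand. Mfap5, Gabrp and Cldn8 are such genes, below the background of 3.94 in WT CD29hi replicate 2, so their folds depend on a value at background.

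Tests used limma 3.58.1 in R 4.3.3: lmFit on 4 groups, eBayes with trend, two-sided, Benjamini-Hochberg over 14598 genes, threshold 0.05. Residual degrees of freedom were 4 and prior ones 4.31. Named are the 15 largest called differences without overlap in each direction, up to 4 members of each list by smallest p, Itgb1, Cd24a, Cebpb and 5 genes per direction of the genotype difference; other list members are said to be named after their values were seen, or appear as uncalled examples or as members of a count, also chosen that way. The members and the 29 lists were chosen with earlier results of these data known. Tested on simulated data with 200 changed genes among 14598, the fit recovered 3% of changes of 1, 48.3% of 2 and 75.5% of 3 on the log2 scale for WT CD29hi against WT CD29lo. Alternatives were quantile normalization, other filters, every probe set, the mean of probe sets, no trend, array weights, only WT arrays, replicate number and pool as blocks, each array left out, and, added after seeing the data, values raised to at least 4. With an array left out, the array left in its group takes its spread from the other groups, as an assumption. A run tests only the genes that pass its filter, and "every alternative run" means every run that tested the gene. Plots were made in Python 3.11.15 (matplotlib 3.10.9).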

Additional observations from a re-analysis of the deposited data

How the results depend on the processing

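The counts of genes called higher in CD29hi and in CD29lo (578 and 618) kept within 1.5 times under quantile normalization, other filters, the mean of probe sets, array weights, only the WT arrays, the random block and the floor of 4. They were 1031 and 982 when every probe set was counted, which counts probe sets, and 376 and 409 with no trend, for which the cause was not tested. Leaving out 1 array gave 214 to 678 and 246 to 705, the lowest without WT CD29hi replicate 2 and without WT CD29lo replicate 1. A fit with a replicate block gave 651 and 755, sharing 566 and 603 genes with the calls above; the correlation of deviations of same-numbered arrays was 0.095 between the WT gates, 0.321 and 0.111 between KO CD29lo and WT CD29lo and WT CD29hi, and 0.00563 to 0.0236 in the other 3 pairs of groups. The labels name 2 paired sets but do not say that the number marks one, and the numbers were not taken to pair the arrays. The count of genes whose difference changed with genotype was 0 by limma in every fit that gave one (722 with an unadjusted p under 0.05). Of 124 called genes among the 147 named by rule, 71 kept direction and call in every alternative and none reversed. Differences that changed sign were all uncalled: Itgb1 (-0.00333) and Cebpb (-0.0675) with the mean of probe sets, Sncg with quantile normalization (0.019), and, with single arrays left out, Cebpb (-0.08 to 0.27), Slc7a11 (-0.02 to 0.58) and Sncg (-0.495 to 0.485).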

Other observations

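Some gene families outside the lists are described by their counts, and the members named are single genes, from which nothing is read about the family. Among 50 tested potassium channel genes, 4 were called higher in CD29hi and 1 higher in CD29lo. Kcnk2, a background channel opened by stretch, differed by 5.32 (adjusted p = 0.00232) and Kcnj2, an inward rectifier, by 4.02 (adjusted p = 0.00149), while Kcnn4, a channel opened by calcium, differed by -2.09 (adjusted p = 0.0045). Of 276 solute carriers 15 were called for CD29hi and 10 for CD29lo, shares of 5.43% and 3.62% beside 3.96% and 4.23% of all genes. Slc1a3, a glutamate transporter, was higher in CD29hi by 4.05 (adjusted p = 0.0116), and Slc5a5, the sodium iodide symporter that concentrates iodide in milk, was lower there by -3.26 (adjusted p = 0.00414). The calls of these family members were not followed with single arrays left out, and the genes were chosen after their values were seen.

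Of 314 Zfp zinc finger genes 7 were called for CD29hi and 2 for CD29lo, shares below those of all genes, and of 22 Hox genes none was called by limma. Tetraspanins gave 3 calls of 18 each way: Tspan1, Tspan13 and Tspan33 for CD29lo, and Tspan2, Tspan18 and Tspan31 for CD29hi.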
